A study of Mus musculus with 12 samples.

Results

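The genes described here are 7 transcription factor genes of the myeloid lineage, Cebpa, Cebpb, Cebpd, Cebpe, Spi1, Gfi1 and Myb, out of 24444 gene symbols in each of the count tables. They were chosen by name, and all 7 passed the filter on low counts in every comparison. Their expression was read from bulk RNA sequencing of mouse bone marrow, with 12 libraries in 4 groups of 3. The aged_KO libraries (replicates 3, 9 and 10) came from Hopx-knockout C57BL/6 mice labelled as old and 18 weeks of age, and the aged_WT libraries (replicates 1, 6 and 7) from Hopx-wildtype mice of the same strain and age. The MN1_KO libraries (replicates 5, 7 and 8) came from Hopx-knockout C57BL/6 mice with MN1 overexpression at 16 weeks of age, and the MN1_WT libraries (replicates 2, 3 and 4) from Hopx-wildtype mice with MN1 overexpression at that age. The product of Hopx is an unusually small homeodomain protein without DNA binding of its own, and MN1, a coregulator of transcription, causes myeloid leukaemia in mice when its level in marrow is raised. How MN1 was delivered, whether the host marrow was replaced and whether the overexpressed gene was the mouse or the human one are not given in the sources used here. MN1 status, labelled age and table coincide, so an MN1 library set against an aged one differs in all of these. Nothing in the labels says that the libraries of a group came from separate animals, so p-values measure the spread between these samples.

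Granulocytes are made in the marrow in steps, and each step leans on other transcription factors. MYB keeps stem and progenitor cells dividing and is shut down as they mature. PU.1, the product of Spi1, is required for the myeloid lineages and, at lower levels, for B cells. C/EBP alpha commits progenitors to the granulocyte and monocyte path, C/EBP epsilon turns on the genes of the secondary granules, and C/EBP beta and C/EBP delta respond to cytokines and act when demand for granulocytes is high. The C/EBP proteins bind DNA as dimers through a shared basic leucine zipper. GFI1 is a zinc finger repressor that favours granulocytes over monocytes by silencing monocytic and progenitor genes.

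Library totals ran from 16544407 to 28409046 counts, and the 7 genes had between 314 and 41771 counts in a library. Values of single libraries are CPM, counts scaled to a common library total. The targeted gene Hopx stood at 0, 0 and 0.121 CPM in aged_KO replicates 3, 9 and 10, against 14.2, 33.6 and 15.3 CPM in aged_WT replicates 1, 6 and 7. It stood at 3.50, 3.51 and 2.92 CPM in MN1_KO replicates 5, 7 and 8, against 27.9, 14.1 and 25.6 CPM in MN1_WT replicates 2, 3 and 4, so the libraries labelled MN1_KO were not free of Hopx transcript. Mn1 went against its label in 2 libraries. The MN1_KO replicates 5, 7 and 8 had 47.3, 46.3 and 22.1 CPM of Mn1, and the library labelled MN1_WT replicate 3 had 36.4 CPM. Those labelled MN1_WT replicates 2 and 4 had 0.395 and 0.16 CPM, which falls inside the aged range of 0.0704 to 1.18 CPM. For most of the 7 genes, fits that rest on those 2 libraries are given with and without them. Other MN1_WT values are given library by library. The libraries expressed the marker genes of marrow: summed over 8 mature neutrophil genes, the lowest library held 1752 CPM and the highest 11229 CPM.

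Spi1 and Cebpe were the most abundant of the 7 in aged marrow when levels were compared per transcript length, as the deposited TPM, which divides counts by transcript length. Spi1 averaged 451 ± 54 TPM in aged_KO and 298 ± 20 TPM in aged_WT (SD, n = 3 each). Cebpe averaged 241 ± 11 TPM in aged_KO and 193 ± 12 TPM in aged_WT. Cebpb came next in aged_KO, at 118 ± 15 TPM, against 73.0 ± 6.4 TPM in aged_WT, where Myb at 77.4 ± 4.3 TPM and Cebpd at 69.4 ± 8.2 TPM stood within the spread of it. Cebpa and Gfi1 were the lowest in aged marrow, at 38.9 ± 4.9 and 43.1 ± 11 TPM in aged_KO and at 46.1 ± 3.2 and 27.0 ± 1.3 TPM in aged_WT. Even so, each of the 7 lay high among all 24444 gene symbols: by mean TPM in aged_WT, Gfi1 was at percentile 83.8 and Spi1 at percentile 98.5. That ranking includes symbols without a count, and an aged_WT library held a count for 15856 to 15978 genes. Across the 12 libraries Myb had the widest range, with its highest library 14.6 times its lowest in CPM, followed by Cebpb at 8.20 times. Cebpe, at 2.89 times, and Spi1, at 3.00 times, had the narrowest. Within the 6 aged libraries that ratio ran from 1.35 for Cebpd and Cebpe to 2.06 for Gfi1.

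**Figure D1:**
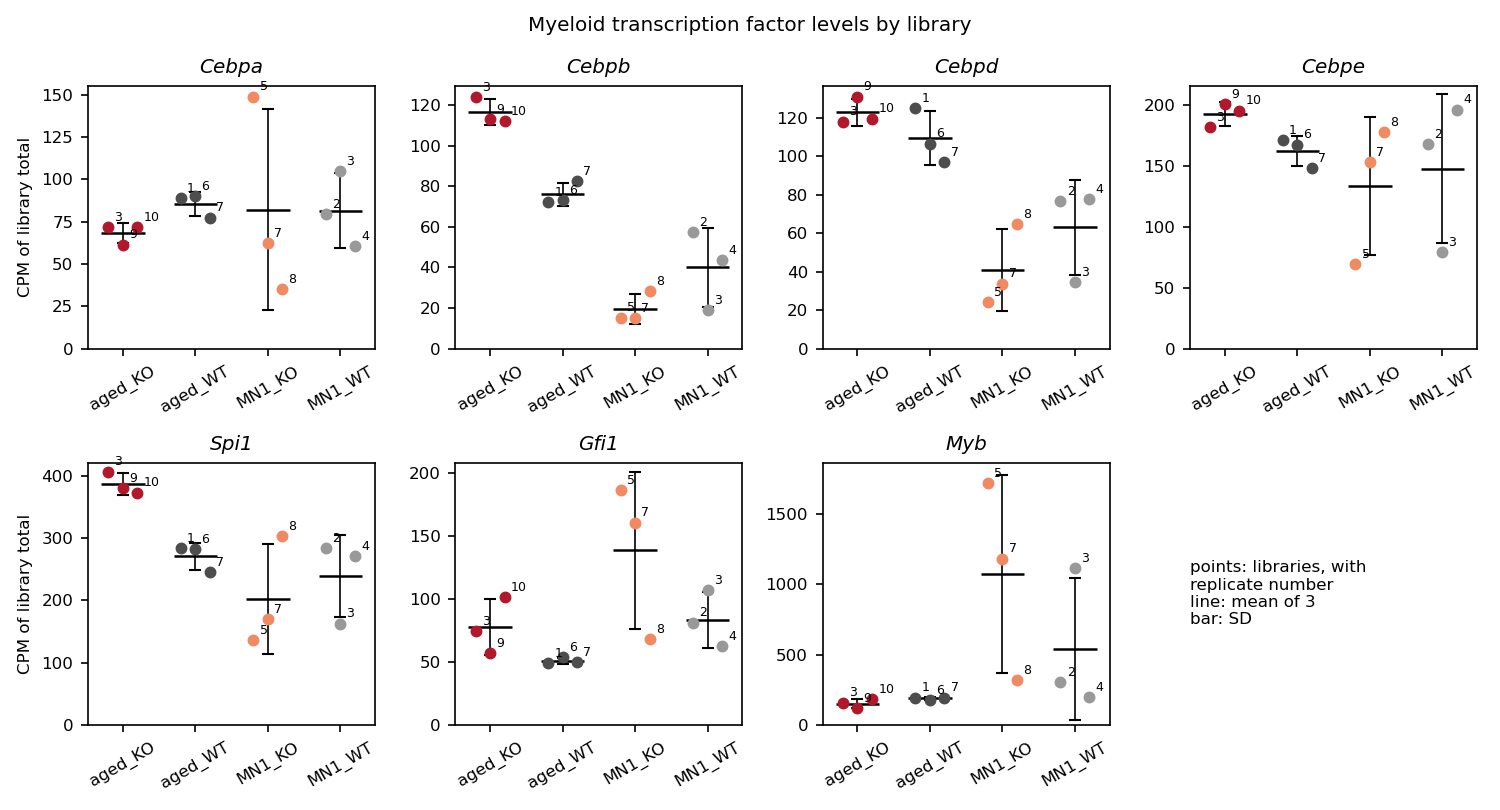
Level of each of the 7 genes in every library, in CPM of the library total on axes that start at 0, with points numbered by replicate, a line for the mean of 3 libraries and a bar for the SD. The highest of the 6 aged libraries is 1.35 times the lowest for Cebpd and Cebpe and 2.06 times for Gfi1, whereas Myb spreads from 320 to 1718 CPM in MN1_KO and from 196 to 1118 CPM in MN1_WT.

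The first comparison, aged_KO against aged_WT, addresses how marrow expression differs when Hopx is lost. Of the 7 genes, 4 were higher in aged_KO: Cebpb 1.74-fold, Gfi1 1.72-fold, Spi1 1.62-fold and Cebpe 1.35-fold. Cebpa, Cebpd and Myb did not pass the test, and 0 of the 7 fell. Over all 12771 genes tested, 15.6% rose and 15.8% fell (edgeR quasi-likelihood test, Benjamini-Hochberg adjusted p under 0.05). The median log2 fold change of the 7 genes was 0.43, against -0.02 over all genes tested. Across the genome, 12.5% of genes had all 3 aged_KO libraries above all 3 aged_WT libraries in CPM, as did the 4 genes that rose, and 38.4% had all 3 below, as did Cebpa. In these whole-marrow libraries, fewer cells of a type and less RNA per cell cannot be told apart.

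Cebpb, the cytokine-responsive member that drives emergency granulocyte production, lies on chromosome 2 (167688915 to 167690418, plus strand, 1 exon, mm10, GENCODE vM21). It was at 124, 113 and 112 CPM in aged_KO replicates 3, 9 and 10, against 72.2, 73.3 and 82.4 CPM in aged_WT replicates 1, 6 and 7. All aged_KO libraries stood above all aged_WT libraries, with the groups far apart relative to their spread. Its log2 fold change was 0.80 ± 0.09 (SE, n = 3 and 3; edgeR adjusted p = 0.000781), and it passed without any 1 aged library, with an adjusted p of 0.00124 to 0.00547. Spi1 (chromosome 2, 91082390 to 91115756, plus strand) was at 407, 381 and 373 CPM in aged_KO, against 284, 283 and 245 CPM in aged_WT. Here too the groups did not overlap, and the log2 fold change was 0.69 ± 0.11 (SE; edgeR adjusted p = 0.00308). Without any 1 aged library the adjusted p of Spi1 was 0.00387 to 0.0138.

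Gfi1 (chromosome 5, 107716657 to 107726036, minus strand) was at 74.8, 57.1 and 102 CPM in aged_KO replicates 3, 9 and 10, against 49.3, 53.8 and 50.04 CPM in aged_WT replicates 1, 6 and 7. The knockout libraries differed more among themselves than the wild-type ones, and replicate 9 stood only just above the highest aged_WT library. The log2 fold change was 0.78 ± 0.17 (SE; edgeR adjusted p = 0.0105), and without any 1 aged library it lay between 0.55 and 0.93. Cebpe (chromosome 14, 54710360 to 54712174, minus strand, 2 exons), the factor of late granulocyte maturation, was at 182, 200.3 and 195 CPM in aged_KO, against 171, 167 and 148 CPM in aged_WT. The groups did not overlap, but the gap between the lowest aged_KO and the highest aged_WT library was small. Its log2 fold change of 0.43 ± 0.12 (SE) passed (edgeR adjusted p = 0.0228), but not without aged_KO replicate 9 (0.0676), aged_WT replicate 6 (0.0633) or aged_WT replicate 7 (0.0867).

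Cebpd (chromosome 16, 15887286 to 15891031, plus strand) was at 118, 131 and 119.7 CPM in aged_KO, against 125, 107 and 96.98 CPM in aged_WT. The groups overlapped through aged_WT replicate 1, and the log2 fold change of 0.35 ± 0.13 (SE) did not pass (edgeR adjusted p = 0.0735); without aged_WT replicate 1 it did (0.0373). Cebpa (chromosome 7, 35119293 to 35121928, plus strand), the commitment factor, was the only one of the 7 with lower CPM in every aged_KO library: 71.6, 61.4 and 71.8 CPM, against 88.9, 89.9 and 77.3 CPM in aged_WT. After scaling by TMM its log2 fold change was -0.15 ± 0.10 (SE) and did not pass (edgeR adjusted p = 0.299). Myb (chromosome 10, 21124935 to 21160984, minus strand) was at 159, 118 and 182 CPM in aged_KO, against 195, 179 and 194 CPM in aged_WT. The groups overlapped by 1 library, aged_KO replicate 10, and the log2 fold change of -0.14 ± 0.14 (SE) did not pass (edgeR adjusted p = 0.479).

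Scaling mattered for Cebpe and Cebpa in the aged comparison. With library totals in place of TMM the median log2 fold change of all genes moved from -0.02 to -0.20. Cebpe then stood at 0.25 (edgeR adjusted p = 0.0800) and Cebpa at -0.32 (adjusted p = 0.0423), while Cebpb, Spi1 and Gfi1 stayed past the threshold. With all 12 libraries setting the spread, 0 of the 7 passed in edgeR: the adjusted p was 0.274 for Cebpb, 0.276 for Spi1, 0.144 for Gfi1 and 0.595 for Cebpe, and the count over all genes fell to 818, against 4008 with the 6 aged libraries. That count was 2560 without aged_WT replicate 6 and 2402 without aged_WT replicate 7.

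**Figure D2:**
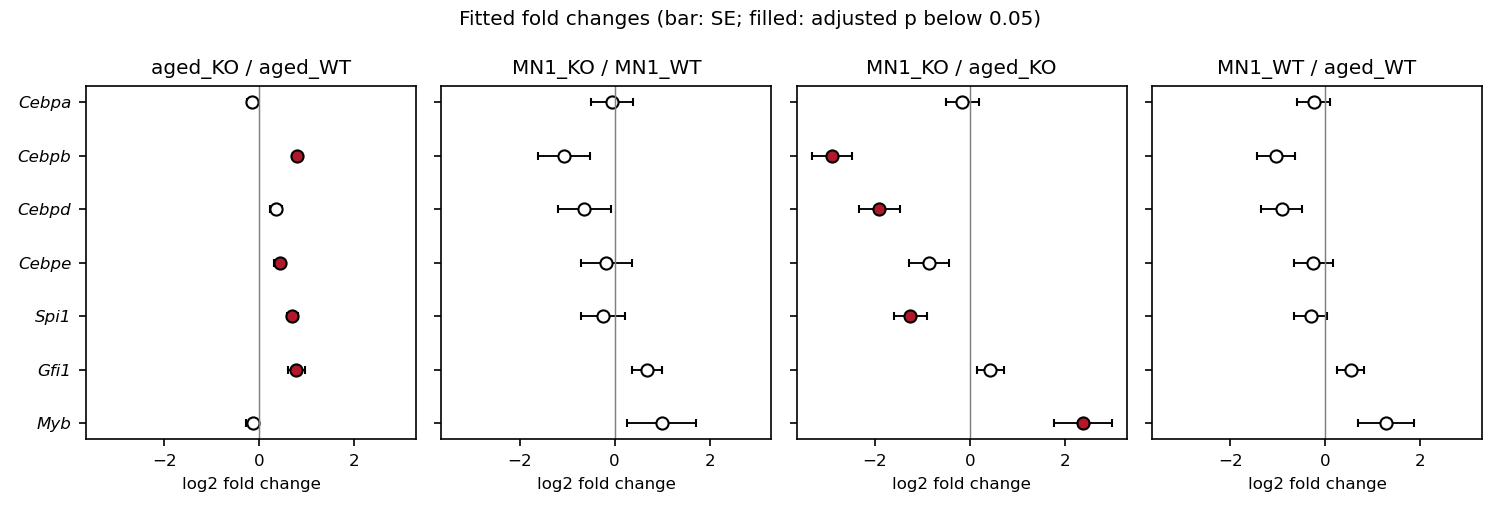
Log2 fold change of each of the 7 genes in 4 comparisons, with bars for the SE and filled points for an edgeR adjusted p under 0.05. In aged_KO over aged_WT the filled points are Cebpb, Cebpe, Spi1 and Gfi1, all to the right of 0; in MN1_KO over aged_KO they are Cebpb, Cebpd and Spi1 to the left and Myb to the right; the other panels have none.

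Most genes listed as targets of C/EBP proteins and of PU.1 were higher in the aged knockout. Of 20 granulocyte genes known as C/EBP targets, 14 rose and 0 fell, with a median log2 fold change of 0.78, against 15.6% of all genes that rose, 15.8% that fell and a median of -0.02. Cd177, a neutrophil surface protein, averaged 2869 ± 97 CPM in aged_KO, against 1516 ± 129 CPM in aged_WT (SD, n = 3 each), a log2 fold change of 1.10 ± 0.14 (SE). Lcn2, the iron-trapping lipocalin of secondary granules, had a log2 fold change of 0.84 ± 0.15, the leukotriene receptor gene Ltb4r1 one of 0.70 ± 0.11 and Itgb2l one of 0.84 ± 0.15 (edgeR adjusted p = 0.00109 to 0.00459 for these 4). Of 16 myeloid genes known as PU.1 targets, 10 rose and 0 fell, with a median of 0.71. Csf2rb, the shared beta chain of the GM-CSF, IL-3 and IL-5 receptors, averaged 647 ± 38 CPM in aged_KO, against 297 ± 48 CPM in aged_WT, and had a log2 fold change of 1.30 ± 0.15. The GM-CSF receptor alpha chain gene Csf2ra was at 0.75 ± 0.13 and the NADPH oxidase subunit gene Ncf4 at 0.76 ± 0.12. Without aged_WT replicate 7, 9 of the C/EBP targets rose, beside 2402 genes called in all. With all 12 libraries setting the spread 0 of the C/EBP targets and 1 of the PU.1 targets passed in edgeR.

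The lists tied to the repressor GFI1 and to MYB held genes called in both directions, beside the 15.6% of all genes that rose and the 15.8% that fell. Counts near those shares are not a result about a list. Of 11 genes known as repressed by GFI1, 1 rose and 2 fell (median -0.24): Irf8, a monocyte and dendritic cell factor, fell by 1.43 and Gfi1b, the erythroid and platelet relative of Gfi1, fell by 1.69 on the log2 scale. Of 9 genes known as MYB targets, 3 rose and 3 fell (median 0.09). The progenitor genes Cd34 and Flt3 both stood at -0.71 and the survival gene Bcl2 at -0.69, whereas the primary granule gene Mpo was at 0.91 ± 0.23. Flt3 did not pass without aged_KO replicate 3 (edgeR adjusted p = 0.0611), aged_WT replicate 1 (0.0587) or aged_WT replicate 7 (0.0526), and Mpo did not without aged_WT replicate 7 (0.0600). Among 20 other myeloid and progenitor transcription factor genes, 4 rose and 5 fell. Gata2, a stem cell, mast cell and basophil factor, averaged 14.8 ± 2.2 CPM in aged_KO, against 38.6 ± 4.5 CPM in aged_WT, and Klf5 averaged 22.5 ± 4.2 CPM in aged_KO, against 12.8 ± 0.75 CPM in aged_WT. Among 7 tested relatives and regulators of the C/EBP proteins, 0 rose and 1 fell. That gene was Trib2, whose protein sends C/EBP alpha to degradation, at 1.67 ± 0.57 CPM in aged_KO, against 19.6 ± 7.8 CPM in aged_WT (log2 fold change -3.33 ± 0.34, edgeR adjusted p = 0.000713).

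Markers of other cell types moved with these genes in the aged comparison, and their part in the result was not tested. The lists share genes: Csf3r, Mmp8 and Mmp9 are mature neutrophil markers and listed C/EBP targets. Kit, Cd34 and Flt3 are progenitor markers and listed MYB targets. The marker counts below stand beside 15.6% of all genes that rose and 15.8% that fell. All 10 B cell markers fell, with a summed level of 21.1 to 33.4 CPM in aged_KO, against 452 to 972 CPM in aged_WT. Of 8 tested erythroid markers 6 fell, and the sum was 405 to 719 CPM in aged_KO, against 1049 to 5541 CPM in aged_WT. All 7 tested T cell, all 6 megakaryocyte and all 6 eosinophil markers fell as well. Of 8 mature neutrophil markers 5 rose, with a sum of 9154 to 11229 CPM in aged_KO, against 6062 to 8285 CPM in aged_WT. The 6 monocyte markers did not pass in either direction. Of 6 progenitor markers 3 fell, with a sum of 109 to 126 CPM in aged_KO, against 158 to 168 CPM in aged_WT.

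The make-up of the C/EBP genes was compared between the aged groups, and only the share of Cebpe was tested. Summed over Cebpa, Cebpb, Cebpd and Cebpe, the aged_KO libraries held 448 to 512 TPM and the aged_WT libraries 365 to 397 TPM. In TPM, Cebpe was the largest part in every one of the 12 libraries. Its share was 50.3 ± 1.8% in aged_KO and 50.6 ± 1.3% in aged_WT (SD, n = 3 each; exact two-sided permutation test, p = 0.8, where the smallest p that 3 against 3 allows is 0.1). Cebpa made up 7.15 to 8.62% in aged_KO, against 11.7 to 12.6% in aged_WT, and Cebpb made up 23.4 to 26.5% in aged_KO, against 17.3 to 22.1% in aged_WT. Neither pair of ranges overlapped, but neither difference was tested, and shares of 1 sum do not move independently. The share of Cebpd was 16.7 to 17.9% in aged_KO and 17.1 to 19.8% in aged_WT, which overlapped.

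**Figure D3:**
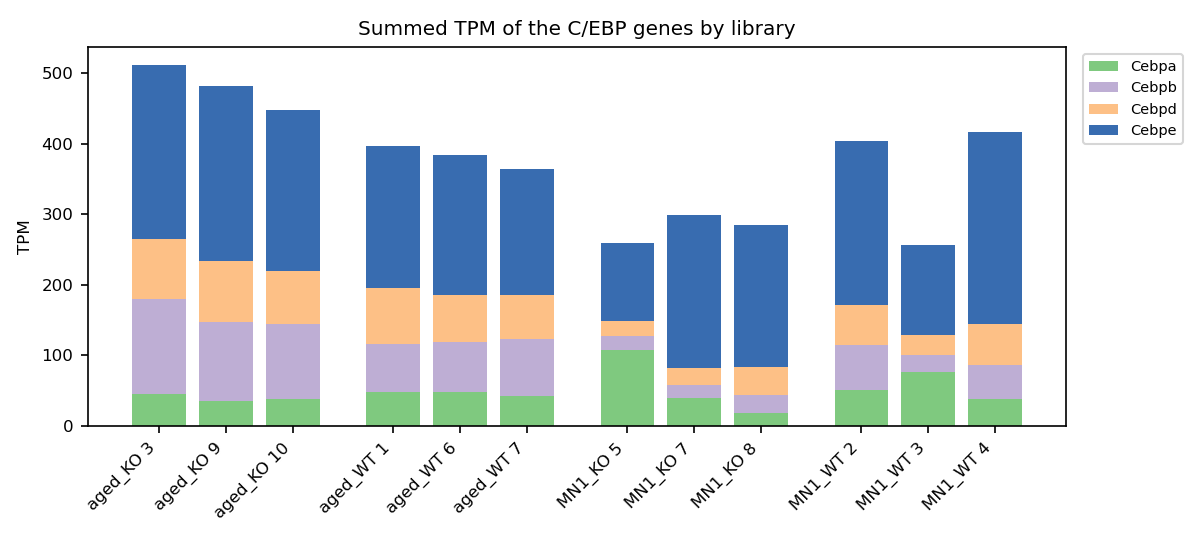
Summed TPM of the 4 C/EBP genes in each library as stacked bars that start at 0, by gene. Cebpe is the largest block in all 12 libraries; Cebpa makes up 41.5% in MN1_KO replicate 5 and 29.4% in MN1_WT replicate 3, and between 6.35 and 13.3% in the others.

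MN1_KO against MN1_WT is labelled as the loss of Hopx under MN1 overexpression, but the groups differed in Mn1 as well: it was at the aged level in 2 of the 3 libraries labelled MN1_WT. With edgeR, 0 of the 7 genes passed, as did 0% of the 13525 genes tested. Hopx itself, 7.14-fold lower in MN1_KO, did not pass either (edgeR adjusted p = 0.129), so a gene that did not pass is not shown to be unchanged. At an unadjusted p under 0.05 were 1353 genes and 0 of the 7, and DESeq2 called 623 genes and 0 of the 7. All 7 genes had overlapping groups, whereas 15.1% of all genes did not overlap. Libraries of the same group lay far apart. Myb was at 1718, 1183 and 320 CPM in MN1_KO replicates 5, 7 and 8, against 304, 1118 and 196 CPM in MN1_WT replicates 2, 3 and 4. MN1_WT replicate 3 stood with the 2 highest MN1_KO libraries, and MN1_KO replicate 8 stood near the 2 lowest MN1_WT libraries. The log2 fold change of Myb was 0.99 ± 0.73 (SE; edgeR adjusted p = 0.746).

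Spread within the groups was wide for Cebpb, Cebpd, Cebpe and Spi1 as well. Cebpb was at 15.3, 15.1 and 28.3 CPM in MN1_KO, against 57.3, 18.9 and 43.7 CPM in MN1_WT, with MN1_WT replicate 3 inside the MN1_KO range. Cebpd was at 24.1, 33.8 and 64.9 CPM in MN1_KO, against 77.0, 34.5 and 77.9 CPM in MN1_WT. MN1_WT replicate 3 was again the low library of its group and MN1_KO replicate 8 the high one of its own. Cebpe was at 69.2, 153 and 177 CPM in MN1_KO, against 167, 79.3 and 196 CPM in MN1_WT. Spi1 was at 136, 170.3 and 303 CPM in MN1_KO, against 284, 163 and 271 CPM in MN1_WT. For both, MN1_WT replicate 3 was the low library of its group and MN1_KO replicate 8 the high one of its own. Their log2 fold changes were -1.06 ± 0.55 for Cebpb, -0.63 ± 0.56 for Cebpd, -0.18 ± 0.54 for Cebpe and -0.24 ± 0.46 for Spi1 (SE; edgeR adjusted p = 0.606 to 0.941).

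For Gfi1 and Cebpa, MN1_WT replicate 3 was the high library of its group and MN1_KO replicate 8 the low one of its own. Gfi1 was at 187, 161 and 68.4 CPM in MN1_KO, against 81.3, 107 and 62.4 CPM in MN1_WT, with a log2 fold change of 0.68 ± 0.32 (SE; edgeR adjusted p = 0.564). Cebpa was at 149, 62.3 and 35.3 CPM in MN1_KO, against 79.5, 105 and 60.3 CPM in MN1_WT, with a log2 fold change of -0.06 ± 0.44 (SE; edgeR adjusted p = 0.976). The highest and the lowest Cebpa value of all 12 libraries both came from MN1_KO. Without MN1_WT replicates 2 and 4, where Mn1 was low, the comparison had 1 wild-type library and the signs of 4 of the 7 genes turned: Cebpb was at 0.25, Cebpd at 0.46, Cebpe at 0.95 and Spi1 at 0.53, while Cebpa was at -0.26, Gfi1 at 0.49 and Myb at 0.03, with 0 past the threshold. In that fit the lone wild-type library was assumed to vary like the knockout ones. Without MN1_WT replicate 3, 896 genes passed, 0 of the 7 among them.

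Marker levels of progenitors and mature neutrophils split the MN1 libraries along with Myb, and their part in the result was not tested. The 6 progenitor markers summed to 2160, 1702 and 415 CPM in MN1_KO replicates 5, 7 and 8, against 184, 2218 and 107 CPM in MN1_WT replicates 2, 3 and 4. The 8 mature neutrophil markers summed to 1752, 4342 and 8493 CPM in MN1_KO, against 6950, 3716 and 7006 CPM in MN1_WT. Stfa2l1 alone gave 312, 776 and 2317 CPM of the MN1_KO sums. It gave 29.3, 21.8 and 31.4 CPM of the MN1_WT sums, so the order of the libraries rests in part on that gene. The ratio of Myb to Cebpe, in TPM, was 8.36, 2.62 and 0.612 in MN1_KO, against 0.616, 4.74 and 0.339 in MN1_WT, and it lay between 0.201 and 0.450 in the aged libraries. The 3 libraries with a ratio above 1 were MN1_KO replicates 5 and 7 and MN1_WT replicate 3. In these 3 the summed progenitor markers were highest. The B cell markers summed to 31.4 to 45.1 CPM in MN1_KO and to 373, 45.6 and 238 CPM in MN1_WT replicates 2, 3 and 4.

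**Figure D4:**
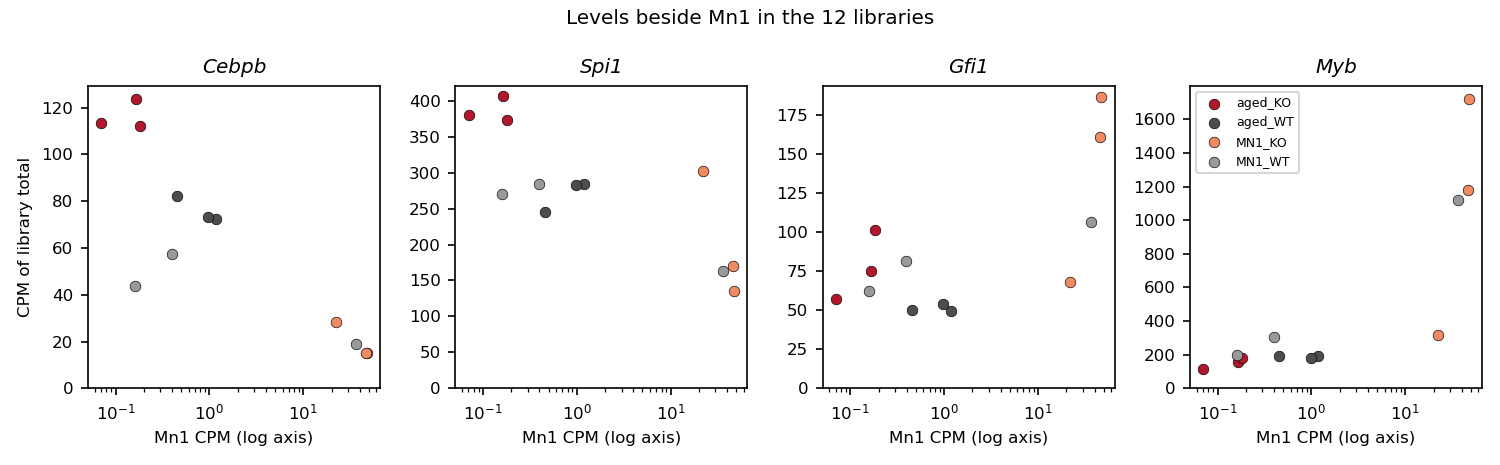
Levels of Cebpb, Spi1, Gfi1 and Myb in CPM of the library total (axes from 0) against the level of Mn1 in CPM (log axis) in the 12 libraries, coloured by group. MN1_WT holds 1 library at 36.4 CPM of Mn1 and 2 at 0.395 and 0.16 CPM; the 4 libraries with the most Mn1 have the lowest Cebpb and the highest Myb.

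The share of Cebpe among the C/EBP genes was 62.1 ± 17% in MN1_KO and 57.7 ± 7.9% in MN1_WT (SD, n = 3 each; exact two-sided permutation test, p = 0.7, smallest possible p 0.1). The means hid a wide range: Cebpe made up 43.0, 72.5 and 70.9% in MN1_KO replicates 5, 7 and 8, and 57.7, 49.7 and 65.5% in MN1_WT replicates 2, 3 and 4. Cebpa made up 41.5, 13.3 and 6.35% in MN1_KO and 12.4, 29.4 and 9.06% in MN1_WT. In TPM, Cebpa and Cebpe were thus nearly equal in MN1_KO replicate 5, which had the highest Myb of all libraries. In expected counts, which are not divided by length, Cebpa was the larger there, at 3617 against 1683 for Cebpe, and in MN1_WT replicate 3, at 2521 against 1911. The Cebpe share was inside the MN1_KO range in every MN1_WT library, whether its Mn1 was high or low.

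MN1_KO set against aged_KO compares knockout marrow with and without labelled MN1 overexpression, with age and table also different. Of the 7 genes, Myb was 5.21-fold higher in MN1_KO, while Cebpb was 7.47-fold, Cebpd 3.74-fold and Spi1 2.38-fold lower. Over all 13937 genes tested, 21.1% rose and 16.8% fell in edgeR. Myb had a log2 fold change of 2.38 ± 0.60 (SE; edgeR adjusted p = 0.0134), with values of 320 to 1718 CPM in MN1_KO above the 118 to 182 CPM of aged_KO. Cebpb had one of -2.90 ± 0.43 (adjusted p = 0.00178), at 15.1 to 28.3 CPM in MN1_KO against 112 to 124 CPM in aged_KO. Cebpd stood at -1.90 ± 0.44 (adjusted p = 0.00931) and Spi1 at -1.25 ± 0.35 (adjusted p = 0.0202). The groups did not overlap for these 4 genes, nor for Cebpe, which was lower in every MN1_KO library; 42.1% of all genes were higher and 12.5% lower in every MN1_KO library.

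Cebpe at -0.86 ± 0.41, Gfi1 at 0.43 ± 0.29 and Cebpa at -0.16 ± 0.35 did not pass (SE; edgeR adjusted p = 0.117, 0.250 and 0.722). Single libraries decided several of these calls. Spi1 did not pass without aged_KO replicate 3 (0.0505), aged_KO replicate 9 (0.0597), MN1_KO replicate 5 (0.0595) or MN1_KO replicate 7 (0.0716), and Myb did not without aged_KO replicate 9 (0.0578). Without MN1_KO replicate 8, the library of this group with the least Mn1, Cebpe and Gfi1 passed as well (0.0410 and 0.0208), and without MN1_KO replicate 5 Cebpa passed at -0.83 (0.0226). With library totals in place of TMM the median of all genes moved from 0.08 to 0.46 and the share of calls that were higher from 55.6 to 79.7%, and Cebpa turned to 0.27, while the 4 genes called stayed past the threshold. Without any 1 library the count over all genes ran from 2515, without aged_KO replicate 9, to 7366, without MN1_KO replicate 8; it was 3083 without aged_KO replicate 3, 3369 without MN1_KO replicate 5 and 3234 without MN1_KO replicate 7.

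In MN1_WT against aged_WT, 0 of the 7 genes passed in edgeR or DESeq2, and 1 of the 7, Cebpb, was at an unadjusted p under 0.05; 3.58% of all genes were called. The fitted log2 fold changes were 1.28 ± 0.58 for Myb, 0.54 ± 0.29 for Gfi1, -1.04 ± 0.40 for Cebpb and -0.92 ± 0.43 for Cebpd (SE; edgeR adjusted p = 0.150 to 0.272). In CPM, Myb and Gfi1 were higher in every MN1_WT library than in any aged_WT library, where 27.2% of all genes were. For Myb the gap was narrow, with 196.1 CPM in MN1_WT replicate 4 against 194.9 CPM in aged_WT replicate 1. These CPM are scaled to library totals and not by TMM. Cebpb and Cebpd were lower in every MN1_WT library, where 13.4% of all genes were. Cebpa, Cebpe and Spi1 overlapped, with log2 fold changes of -0.24, -0.25 and -0.31. Over all alternatives run, their lowest values were -0.37, -1.33 and -1.04, so the small effects of Cebpe and Spi1 were not stable. Without MN1_WT replicates 2 and 4, which leaves 1 MN1_WT library and takes all of the spread from the other groups, Cebpb at -2.31 (edgeR adjusted p = 0.0117), Cebpd at -1.97 (0.0484) and Myb at 2.26 (0.0220) passed, and so did 2465 genes in all. Without any 1 library of these groups the count over all genes was 78 to 397: 78 without aged_WT replicate 6, 103 without aged_WT replicate 7, 135 without aged_WT replicate 1 and 130 without MN1_WT replicate 2.

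The knockout effect was also compared between the experiments, as the MN1 effect minus the aged effect. With edgeR 0 of the 7 genes and 3.32% of the 13937 genes passed, and 1 of the 7, Cebpb, was at an unadjusted p under 0.05. Leaving out any 1 of the 12 libraries moved the count of 463 genes to between 53, without aged_WT replicate 7, and 3337, without MN1_WT replicate 3. Among the 7, Cebpb had the difference farthest from 0, -1.86 ± 0.57 (SE; edgeR adjusted p = 0.0930). It was 1.74-fold higher in aged_KO than in aged_WT and 2.09-fold lower in MN1_KO than in MN1_WT, the second without passing. That difference passed with DESeq2 (adjusted p = 0.0187), without MN1_KO replicate 8 (edgeR adjusted p = 0.0368) and without MN1_WT replicate 3 (0.00429), but it was -0.62 (0.663) without MN1_WT replicates 2 and 4. Spi1 stood at -0.94 ± 0.49 (0.282) and passed without MN1_KO replicate 8 (0.0473), and it was -0.24 without MN1_WT replicates 2 and 4. Myb stood at 1.10 ± 0.81 (0.441) and passed without MN1_WT replicate 3 (0.0382), and it was 0.09 without MN1_WT replicates 2 and 4, a fit that leaves 1 MN1_WT library. Cebpd at -0.99, Cebpe at -0.61, Gfi1 at -0.11 and Cebpa at 0.08 did not pass.

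The target lists in MN1_KO against aged_KO are given beside those of the aged knockout, with which they share the aged_KO libraries. Of the 20 granulocyte genes known as C/EBP targets, 0 rose and 12 fell (median -1.52, against 0.08 over all genes tested, of which 21.1% rose and 16.8% fell). The ficolin gene Fcnb stood at -3.33 ± 0.58 and at 0.59 ± 0.13 in the aged knockout, and Cd177 at -1.98 ± 0.46 and at 1.10 ± 0.14. Of the 16 PU.1 targets, 0 rose and 8 fell (median -1.26). The endotoxin receptor gene Tlr4 stood at -1.59 ± 0.27 and at 0.98 ± 0.23 in the aged knockout, and Csf2rb at -0.88 ± 0.20 and at 1.30 ± 0.15. Of the 9 MYB targets, 5 rose and 3 fell (median 0.82). Mpo and Elane, among those that fell, are also counted among the C/EBP targets. The receptor gene Kit stood at 2.43 ± 0.61 and did not pass in the aged knockout (0.12 ± 0.12), Mat2a was at 0.81 ± 0.23, the neutrophil elastase gene Elane at -1.75 ± 0.50 and the cyclin gene Ccnb1 at -0.99 ± 0.21. The number of C/EBP targets that fell was 7, 6 and 6 without aged_KO replicates 3, 9 and 10 and 7 and 5 without MN1_KO replicates 5 and 7. That of PU.1 targets was 4 without aged_KO replicate 9, 5 without MN1_KO replicate 5 or 7, and 15 without MN1_KO replicate 8. Without MN1_KO replicate 8, 17 of the C/EBP targets passed. The count over all genes moved as well, from 2515 without aged_KO replicate 9 to 7366 without MN1_KO replicate 8. Kit did not pass without aged_KO replicate 9 (edgeR adjusted p = 0.0527), and Elane did not without aged_KO replicate 10 or MN1_KO replicate 7 (0.0690 and 0.0691). Mat2a did not pass without aged_KO replicate 3 or 9 or MN1_KO replicate 5 or 7 (0.0519 to 0.0830).

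Of the 11 genes known as repressed by GFI1, 4 rose and 3 fell in MN1_KO against aged_KO (median 0.39), beside 21.1% of all genes that rose and 16.8% that fell, with Gfi1b at 1.41 ± 0.36. Gfi1b did not pass without aged_KO replicate 10 (edgeR adjusted p = 0.0519). Among the 20 other transcription factor genes, 4 rose and 9 fell. Gata2 stood at 4.81 ± 0.82, Stat3, which carries the G-CSF signal, at -1.21 ± 0.16 and Klf5 at -2.18 ± 0.33. Among the 7 relatives and regulators of the C/EBP proteins, 1 rose and 2 fell. Trib1 and Trib2, whose products both promote the loss of C/EBP alpha, moved in opposite directions, at -3.54 ± 0.56 and 2.06 ± 0.40 (SE; edgeR adjusted p = 0.00236 and 0.00509). In this comparison 5 of 6 progenitor markers rose and 1 fell. Of 8 mature neutrophil markers, 1 rose and 5 fell, and the part of these markers in the result was not tested. The progenitor markers that rose are all in the target lists too, Kit, Cd34 and Flt3 for MYB and Hoxa9 and Meis1 for GFI1. In MN1_KO against MN1_WT, 0 genes of any of these lists passed in edgeR, with or without MN1_WT replicates 2 and 4.

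**Figure D5:**
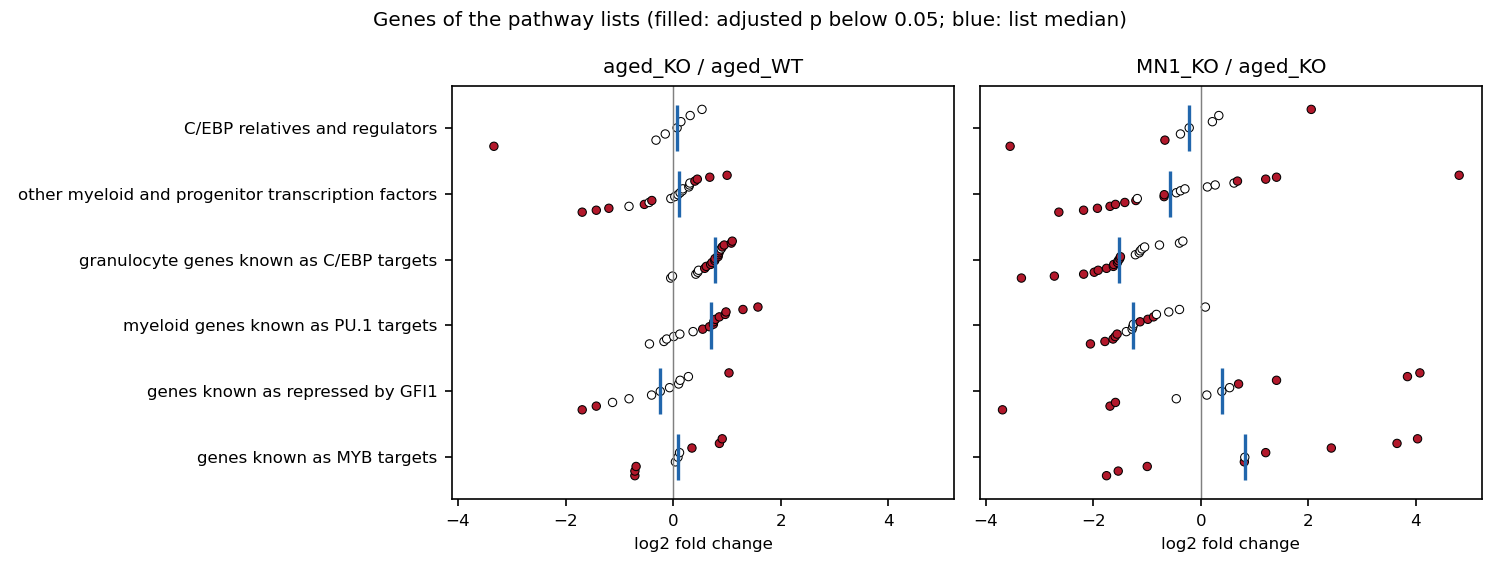
Log2 fold change of each gene of 6 lists in aged_KO over aged_WT (left) and MN1_KO over aged_KO (right), with 1 point a gene, filled for an edgeR adjusted p under 0.05, and a blue line at the list's median. The medians of the C/EBP target list are 0.78 on the left and -1.52 on the right; the comparisons share the aged_KO libraries.

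Across the 12 libraries, Cebpb, Cebpd, Cebpe and Spi1 varied together and Myb varied against them. These correlations describe libraries that share groups and scaling, and no p is given. Pearson's r of log2 CPM, here scaled by TMM, was 0.97 between Cebpb and Cebpd, 0.95 between Spi1 and Cebpd, and -0.97 between Myb and Cebpd. Cebpa stood apart, with r between -0.39 and 0.14 to the other 6. Among 10792 other genes, those with a pattern most like each factor were Klf13, Tpd52 and Ms4a4a for Cebpb (r of 0.99, 0.99 and 0.98), AB124611 and Capzb for Cebpd (0.99 each), Aoah, Myl12a and Cnn2 for Cebpe (0.98 each) and Cfl1, Anxa2 and Gnai2 for Spi1 (0.99 each). For Myb they were Qsox2, Rpap2 and Kit (r of 1.00, 0.99 and 0.99), and for Gfi1 they were Ppm1f, Ak4 and Top3b (0.96, 0.95 and 0.94). The nearest to Cebpa were Adal, Msl3 and Galnt1, with r of 0.92, 0.90 and 0.89. Kit, the stem cell factor receptor, averaged 60.8 ± 9.4 CPM in aged_KO, against 63.3 ± 2.2 CPM in aged_WT, and 439 ± 252 CPM in MN1_KO (SD, n = 3 each). Its level was 619.7 and 546 CPM in MN1_KO replicates 5 and 7 and 151 CPM in replicate 8, against 96.96, 459.96 and 74.8 CPM in MN1_WT replicates 2, 3 and 4.

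Sequence just upstream of the start was looked at for the factors that moved most, Cebpb and Myb, and for Cebpa, which stood apart from the rest. RefSeq windows of GRCm38.p6 were at hand for 4 of the 7 genes (Cebpa, Cebpb, Gfi1 and Myb), and the 250 bases before the start are printed 5′ to 3′ on the gene's strand, with capitals marking a match to a searched word. They lie at chr7:35119043-35119292 (plus strand) for Cebpa, chr2:167688665-167688914 (plus strand) for Cebpb and chr10:21160985-21161234 (minus strand) for Myb.
Cebpa: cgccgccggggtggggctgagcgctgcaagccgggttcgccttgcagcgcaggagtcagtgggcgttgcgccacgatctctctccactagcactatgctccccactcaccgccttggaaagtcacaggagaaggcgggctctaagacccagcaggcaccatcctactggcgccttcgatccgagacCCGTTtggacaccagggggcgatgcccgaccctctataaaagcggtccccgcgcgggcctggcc
Cebpb: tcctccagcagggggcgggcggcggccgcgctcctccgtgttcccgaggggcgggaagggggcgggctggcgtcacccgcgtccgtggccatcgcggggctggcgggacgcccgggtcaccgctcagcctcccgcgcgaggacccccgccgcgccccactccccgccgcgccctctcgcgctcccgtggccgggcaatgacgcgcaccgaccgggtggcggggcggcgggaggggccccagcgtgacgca
Myb: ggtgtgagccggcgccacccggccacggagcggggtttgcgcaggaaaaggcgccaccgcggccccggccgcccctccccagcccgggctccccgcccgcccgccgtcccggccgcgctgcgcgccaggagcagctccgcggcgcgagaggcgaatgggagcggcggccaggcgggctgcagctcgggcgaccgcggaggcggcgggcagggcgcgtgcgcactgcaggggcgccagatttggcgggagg
The words searched on both strands were TTNNGCAA for C/EBP, GAGGAA for PU.1, AAATCAC for GFI1 and AACNG for MYB, and 9.56, 23.3, 2.75 and 74.2% of 32851 such windows of all genes hold them. The windows of Cebpb and Myb hold none of these words, and that of Cebpa holds 1 MYB word, CCGTT as printed (the word read on the other strand), 64 bases before the start. One of the Gfi1 windows holds a C/EBP word, 143 bases before the start and overlapping 1 of its 2 MYB words, and the other holds 1 MYB word. G and C make up 81.6% of the Cebpb window, 81.2% of the Myb window and 66.4% of the Cebpa window, against a median of 52.4% over all windows. A match is a description of letters and not a binding site.

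Overlapping transcripts limit some of these values. The library kit kept strand, but the strand setting of the counting is not given in the sources used here. Genes on the other strand overlap Cebpa (Gm45091), Cebpb (Tmem189), Cebpd (Spidr), Gfi1 (A430072P03Rik) and Myb (Gm26577), and reads from them could not be told apart from those of the factors if strand was ignored. Cebpe and Spi1 have no such overlap in GENCODE vM21.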

How the data were processed

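RNA was measured in 12 stranded poly(A) libraries of mouse marrow cells. The authors deposited expected counts, TPM and FPKM per gene symbol, in 1 table for the aged and another for the MN1 libraries. Per the submitters' processing notes, RSEM 1.2.28 and Bowtie2 2.3.4.3 were used on mm10; the annotation is not given in the sources used here. After rounding of the expected counts, genes were filtered with filterByExpr and TMM factors computed; the test was the robust quasi-likelihood F test of edgeR 4.0.16 in R 4.3.3, with Benjamini-Hochberg adjustment over all genes tested and a call at 0.05. Knockout effects came from the 6 libraries of their own table; contrasts across tables came from 1 fit of 12 libraries with 4 group means. DESeq2 1.42.0, RLE scaling, library totals, no filter, another choice of libraries and leaving out each library were the alternatives. The script was tested on simulated data. CPM values use library totals, except in the correlations, where log2 CPM was scaled by TMM. Counts were not whole for 5.2 to 6.84% of genes, depending on the library. C/EBP shares used the deposited TPM, with FPKM and counts as alternatives. Replicates were those of the sample titles, and no pair of libraries held identical values. The 7 genes and the gene lists were chosen with earlier results of these data known, and a direction already known from them is not independent evidence. Genes named from a list are up to 4 with the smallest adjusted p among those past the threshold. Genes alike to a factor are the 3 with the highest Pearson r of TMM-scaled log2 CPM. A few genes that these rules select are not reported here. Cop1 is in the tables as Rfwd2. Protein sequences were not used here.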

Additional observations from a re-analysis of the deposited data

Results flagged for a closer look

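For 6 genes named from the target and regulator lists the knockout effect differed between the MN1 and the aged experiment by the test of the difference itself (MN1 effect minus aged effect, log2 scale, edgeR adjusted p = 0.0309 to 0.0482). Over all 13937 genes tested, 3.32% passed. The 6 were 1 of 7 C/EBP relatives and regulators, 2 of 20 other transcription factor genes, 1 of 20 C/EBP targets and 2 of 16 PU.1 targets. Of 9 MYB targets 0 passed. Counts this small are not a result about a list. The difference was -3.19 ± 0.76 for Fcnb, whose knockout effect was -2.60 in the MN1 experiment and 0.59 in the aged one. It was -2.19 ± 0.45 for Klf5 (effects of -1.20 and 1.00) and -1.76 ± 0.38 for Tlr4 (-0.78 and 0.98). It was -1.33 ± 0.28 for Csf2rb (-0.03 and 1.30) and -1.03 ± 0.22 for Stat3 (-0.34 and 0.68). For Trib2 it was 2.44 ± 0.55, with a knockout effect of -0.89 in the MN1 experiment and -3.33 in the aged one. None of the 6 effects within the MN1 experiment passed on its own. When each of the 12 libraries was left out in turn, Klf5 passed in 4 of the 12 fits, Tlr4 and Trib2 in 3 each, and Csf2rb, Fcnb and Stat3 in 2 each. Without MN1_WT replicates 2 and 4, where Mn1 was low, 1 MN1_WT library was left and 0 of the 6 passed; the difference was then -1.67 for Fcnb, -1.53 for Klf5, -1.18 for Tlr4, -1.05 for Csf2rb, -0.86 for Stat3 and 2.10 for Trib2. Hopx itself also differed between the experiments, with a fitted difference of 6.12 ± 0.96 (edgeR adjusted p = 0.0133). That fitted value depends on the prior count, since aged_KO held 2 Hopx counts in all, and it is no measure of size.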

How the results depend on the processing

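In the aged comparison 4 of the 7 genes passed with edgeR under TMM or RLE scaling and with DESeq2. With all 12 libraries setting the spread, 0 of the 7 and 818 genes in all passed; leaving out single libraries gave 3 to 5 of the 7 and 2402 to 4599 genes. In MN1_KO against MN1_WT 0 of the 7 passed under any alternative, while the count over all genes was 623 with DESeq2, 464 with all 12 libraries and 0 to 896 without single libraries. Signs turned there for Cebpa with library totals (0.011), and without MN1_WT replicates 2 and 4 for Cebpb (0.25), Cebpd (0.46), Cebpe (0.95) and Spi1 (0.53). Leaving out single libraries gave -0.73 to 0.25 for Cebpa, -0.55 to 0.16 for Cebpe and -0.79 to 0.0063 for Spi1. For the difference of the knockout effects DESeq2 called 1 of the 7 and 1636 genes, the fit without MN1_WT replicates 2 and 4 called 40 genes, and single libraries gave 0 to 2 of the 7 and 53 to 3337 genes. Signs turned there for Gfi1 with library totals (0.12), and without MN1_WT replicates 2 and 4 for Cebpa (-0.19), Cebpd (0.040) and Cebpe (0.44). Without single libraries that difference was -0.59 to 0.40 for Cebpa and -0.33 to 0.17 for Gfi1. In MN1_WT against aged_WT DESeq2 called 1755 genes and the fit without MN1_WT replicates 2 and 4 called 3 of the 7 and 2465 genes; single libraries gave 78 to 397 genes, and -0.55 to 0.089 for Cebpe. In MN1_KO against aged_KO Cebpa turned to 0.27 with library totals, and single libraries gave 2 to 6 of the 7, 2515 to 7366 genes, and -0.83 to 0.15 for Cebpa. The difference in the Cebpe share, aged_KO minus aged_WT, was -0.27 percentage points and turned to 1.05 when summed expected counts were used, which weight longer transcripts more; single libraries gave -0.98 to 0.76. For MN1_KO minus MN1_WT it was 4.46, and single libraries gave -0.72 to 14.0. In the comparison for which they were named, genes from the target lists kept their sign under every alternative run. Their signs in MN1_KO against MN1_WT were not followed across the alternatives. The cause of the other moves was not tested. No paired analysis was run because the labels give no pairing of libraries. With 3 libraries a group the spread between libraries, and not the 314 to 41771 counts behind each value, limits these comparisons.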
